A study of Homo sapiens with 8 samples.

Results

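Box C/D small nucleolar RNAs (snoRNAs) that lie inside genes of the translation machinery were examined for crosslinks to dyskerin and GAR1. The members were the GENCODE 44 snoRNA genes named SNORD plus a number that lie wholly within a same-strand protein-coding gene named RPL, RPS, EIF or EEF, or within TPT1, with SNORD2, SNORD21 and SNORD68 left out by name. The rule found 44 gene records at 43 loci, of 312 annotated C/D snoRNAs and 62699 annotated genes. They lay in 20 hosts. Of the 43 members, 24 were in 8 ribosomal protein genes of the large subunit, 14 in 7 ribosomal protein genes of the small subunit, 3 in 3 initiation factor genes and 2 in 2 elongation factor genes, and TPT1 held 0.

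The study mapped where dyskerin and GAR1 touch RNA in U2OS cells, a human bone osteosarcoma line, by individual-nucleotide resolution crosslinking and immunoprecipitation (iCLIP). Cells were irradiated with ultraviolet light, the nuclear fraction was treated with RNase I, and beads carried an antibody against dyskerin, an antibody against GAR1 or mouse IgG. No group had a genetic change or a drug, so the groups differed in the antibody on the beads and in which set they belonged to. There were 4 groups of 2 libraries, namely dyskerin, GAR1, the IgG set that accompanied dyskerin and the IgG set that accompanied GAR1. Both IgG sets used mouse IgG per the labels. The study lists the dyskerin antibody as raised in mouse and the GAR1 antibody as raised in rabbit, so the control matched the species of the first and not of the second. The labels call the 2 libraries of a group replicates, and the study describes its iCLIP plots as averages of independent experiments without saying what was separate. The p-values measure only the spread between these libraries.

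Dyskerin is the pseudouridine synthase of H/ACA ribonucleoproteins and GAR1 is a core protein of the same particles, which convert uridines of rRNA and spliceosomal RNA into pseudouridine. C/D snoRNAs are the other large family of guide RNAs. They pair with rRNA to direct ribose methylation by fibrillarin, within a particle that also holds NOP56, NOP58 and SNU13, and most are cut out of introns, many of them in genes for ribosomal proteins and translation factors. Their box C near the start and box D near the end come together in a kinked stem on which the particle is built.

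The sequences of 11 of the 12 members with the highest level over the 4 groups are printed here, because the crosslink positions described further on are counted along them. Capitals mark the match to box C (TGATG) in the first 20 nt and to box D (CTGA) in the last 15 nt, and each sequence is the DNA form of the RNA read from GRCh38, the build of the deposited files. In the host RPL7A on chromosome 9, SNORD24 is at chr9:133349396-133349470 and SNORD36C at chr9:133350847-133350912, both on the plus strand. In RPL13A on the plus strand of chromosome 19, SNORD34 is at chr19:49490904-49490974 and SNORD35A at chr19:49491175-49491260. In RPL4 on the minus strand of chromosome 15, SNORD16 is at chr15:66502812-66502910 and SNORD18B at chr15:66502020-66502091. In RPS12 on the plus strand of chromosome 6, SNORD100 is at chr6:132816802-132816877 and SNORD101 at chr6:132815307-132815379. SNORD66 lies in EIF4G1 at chr3:184325696-184325771 on the plus strand, SNORD83B in RPL3 at chr22:39313819-39313911 on the minus strand, and SNORD58B in RPL17 at chr18:49491664-49491729 on the minus strand.
SNORD24: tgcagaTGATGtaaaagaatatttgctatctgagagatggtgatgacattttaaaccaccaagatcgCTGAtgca
SNORD36C: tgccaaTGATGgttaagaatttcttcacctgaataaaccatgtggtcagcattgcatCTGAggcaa
SNORD34: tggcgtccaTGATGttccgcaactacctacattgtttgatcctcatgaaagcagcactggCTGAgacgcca
SNORD35A: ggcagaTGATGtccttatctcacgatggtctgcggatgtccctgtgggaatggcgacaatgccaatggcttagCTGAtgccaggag
SNORD16: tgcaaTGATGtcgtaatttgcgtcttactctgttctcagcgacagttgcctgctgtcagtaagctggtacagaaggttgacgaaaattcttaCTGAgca
SNORD18B: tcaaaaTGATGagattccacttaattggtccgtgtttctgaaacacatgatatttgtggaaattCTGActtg
SNORD100: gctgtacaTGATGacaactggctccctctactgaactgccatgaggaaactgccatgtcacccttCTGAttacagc
SNORD101: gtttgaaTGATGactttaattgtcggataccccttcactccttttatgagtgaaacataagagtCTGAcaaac
SNORD66: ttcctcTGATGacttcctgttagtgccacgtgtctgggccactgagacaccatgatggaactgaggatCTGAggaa
SNORD83B: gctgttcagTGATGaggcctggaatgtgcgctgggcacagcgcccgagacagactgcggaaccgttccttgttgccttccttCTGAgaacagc
SNORD58B: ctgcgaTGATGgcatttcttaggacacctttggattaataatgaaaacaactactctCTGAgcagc

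Nearly all members carried the sequence marks of the family. Box C was matched in 41 of 43 (95.3%) and box D in 42 of 43 (97.7%), against 76.2% and 85.5% of the 269 other annotated C/D snoRNAs and 1.87% and 3.74% of 214 H/ACA snoRNAs. SNORD54 and SNORD97 lacked the box C letters in that window, and SNORD97 lacked those of box D as well. Members were 64 to 148 nt long with a median of 73. Members of one family were related but far from identical, from 60% identity for SNORD36B and SNORD36C to 85.9% for SNORD14A and SNORD14B. No member had a copy elsewhere in the genome at 95% identity over 95% of its length.

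The deposited values are significant crosslink sites, each 1 nt wide with the number of cDNAs that ended there. Levels are given as CPM, the cDNAs of a gene scaled to the library's total of peak cDNAs, which makes each value a share of its own library. The libraries held 1693951 and 1875459 peak cDNAs for dyskerin, 585454 and 1976518 for GAR1, 146514 and 8183 for the IgG set of dyskerin and 295255 and 10701 for that of GAR1. The second library of each IgG set was therefore shallow: 3 cDNAs, the count below which a 0 says little, came to 367 and 280 CPM there, against 20.5 and 10.2 CPM in the first IgG libraries and 1.52 to 5.12 CPM in the antibody libraries. For 32 members the dyskerin mean, and for 9 the GAR1 mean, lay under the floor of the shallow library of its IgG set, so a 0 in those libraries could not show a difference at this depth. The 902977 and 925145 sites of the dyskerin libraries stood against 24810 and 53445 in the GAR1 libraries. Among 7 mesenchymal or bone markers, summed CPM was 1387 and 2162 with dyskerin, 0 and 167 with GAR1, and 505, 0, 0 and 0 in the 4 IgG libraries. COL1A2 was at 0 in all 8, and 5 markers of epithelial, blood and liver cells summed to at most 2.53 CPM in any library.

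Crosslinks were found on all but 1 of the members. In each of the 4 antibody libraries 42 of 43 had at least 1 site, and SNORD73B of RPS3A was at 0 in all 8 libraries. With dyskerin the members held 19414 and 19162 cDNAs, or 1.15% and 1.02% of all peak cDNAs. With GAR1 they held 17133 and 61712, or 2.93% and 3.12%. The IgG libraries gave members 0.869% and 1.45% in the dyskerin set and 2.16% and 1.16% in the GAR1 set. The GAR1 shares lay above all others, and the dyskerin shares fell among the IgG shares. Antibody libraries together averaged 2.05% and IgG libraries 1.41%, a difference of 0.645 percentage points that an exact two-sided permutation test over the 8 libraries did not separate (p = 0.343, adjusted p = 0.343 over 4 measures). Such a test has 70 arrangements, and its smallest p is 0.0286.

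C/D snoRNAs of other intronic hosts gave somewhat smaller shares, and H/ACA snoRNAs gave larger ones. The 79 C/D snoRNAs of other protein-coding hosts held on average 0.81% of dyskerin and 2.65% of GAR1 peak cDNAs, and the 150 in lncRNA hosts held 0.72% and 2.20%. The 37 without a host held 0.675% with dyskerin and 0.388% with GAR1, beside 2.17% and 0.497% in the IgG sets, so their share was lower with GAR1 than with dyskerin. Sites in all 4 antibody libraries were present for 42 of 43 members, 59 of 79 in other protein-coding hosts, 35 of 150 in lncRNA hosts and 7 of 37 without a host. The 29 H/ACA snoRNAs in translation hosts had sites in all 4 antibody libraries without exception and held 5.86% and 31.9% on average. Their cDNAs outnumbered those of the members by 4.53 and 6.38 to 1 with dyskerin, by 11.6 and 9.64 to 1 with GAR1, and by 8.83, 18.5, 17.1 and 33.1 to 1 in the IgG libraries. Among snoRNAs with sites in all 4 antibody libraries, the median level per annotated length of the members was 2710 and 2543 CPM per kb with dyskerin and 6981 and 7608 with GAR1. It was 1100 and 796, then 2984 and 3836, for C/D snoRNAs in other protein-coding hosts, 1120 and 999, then 3788 and 3637, for those in lncRNA hosts and 1907 and 1728, then 1930 and 3879, for those without a host. Members were above these 3 classes in each antibody library, and H/ACA snoRNAs in translation hosts were above the members, at 10517 and 12264, then 62474 and 58934. The first IgG library of GAR1 had the same order, at 4691 for members, 2451, 1935 and 2833 for the 3 classes and 66404 for H/ACA snoRNAs. In the first IgG library of dyskerin these were 1637, then 605, 0 and 1650, and 12276. The median of the members was 0 in both shallow libraries.

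Within the C/D family, members held a like part of the crosslinks in the antibody libraries. Their share of all C/D cDNAs was 31.7% and 31.8% with dyskerin, 34.4% and 35.3% with GAR1, 21.5% and 24.3% in the IgG set of dyskerin and 33.7% and 30.2% in that of GAR1. The IgG set of dyskerin was lowest, and the IgG set of GAR1 lay on both sides of the dyskerin libraries. The mean was 33.3% with an antibody and 27.4% with IgG, a difference of 5.86 points (exact two-sided permutation test, p = 0.114, adjusted p = 0.152).

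**Figure D1:**
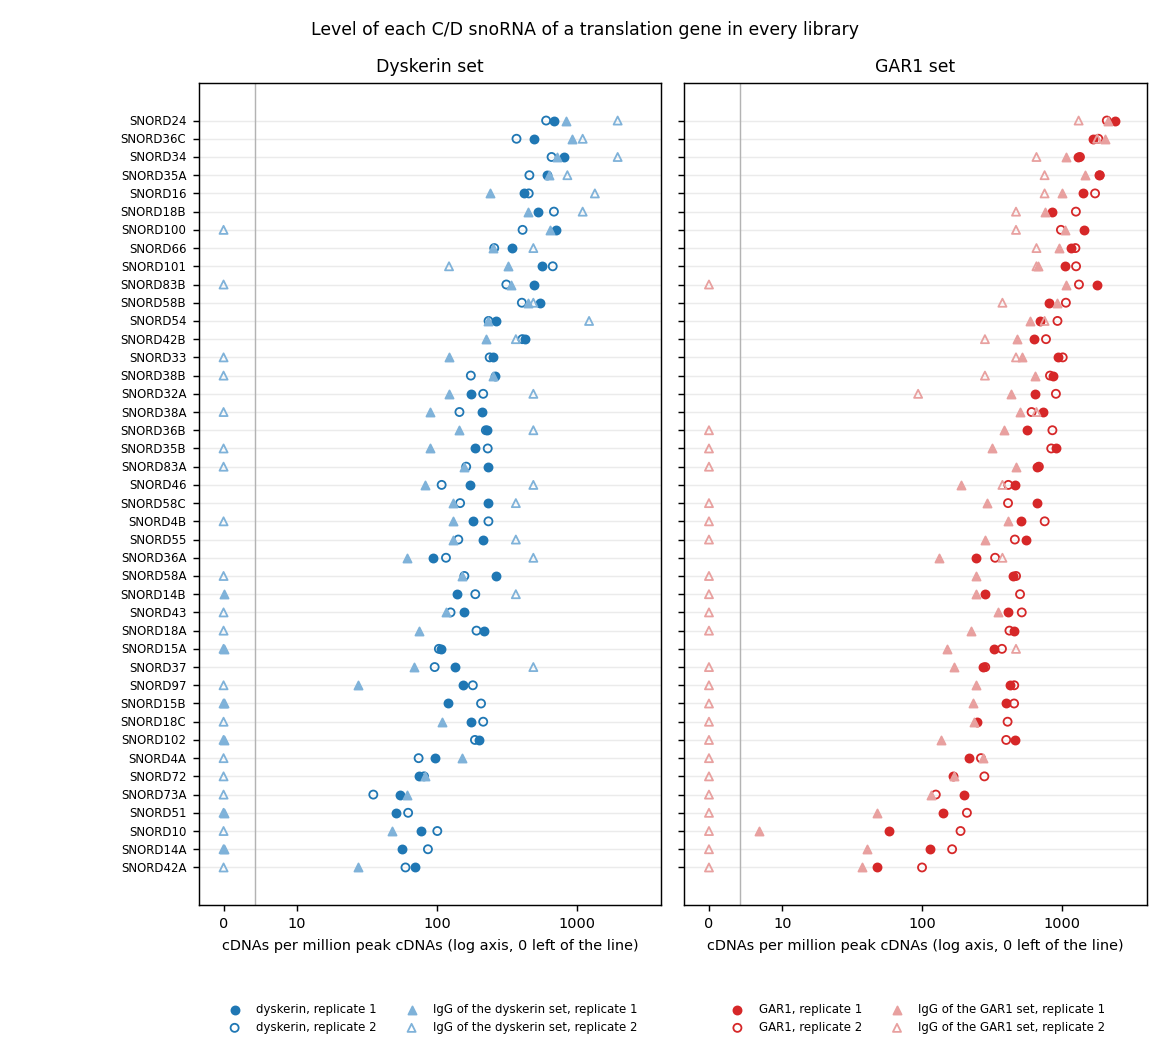
Level in CPM (log axis, with 0 left of the line) of the 42 members with sites, in the dyskerin set on the left and the GAR1 set on the right, with circles for antibody libraries, triangles for IgG libraries, filled symbols for replicate 1 and open ones for replicate 2. SNORD24, SNORD36C and SNORD34 are at the top, and many members are at 0 in the second, shallow library of each IgG set, where 19 members had a site.

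The highest levels were reached by snoRNAs of RPL7A and RPL13A, genes of large-subunit ribosomal proteins. SNORD24, a guide to large-subunit rRNA, stood at 688 and 603 CPM with dyskerin, 2361 and 2079 with GAR1, 833 and 1955 in the IgG set of dyskerin and 2127 and 1308 in the IgG set of GAR1. Both IgG values of the dyskerin set were above both dyskerin values, and the GAR1 values overlapped their IgG set. SNORD36C, from the same host, stood at 491 and 371 CPM with dyskerin, 1660 and 1809 with GAR1, 921 and 1100 in the IgG set of dyskerin and 2019 and 1776 in that of GAR1. SNORD34 of RPL13A, another guide to large-subunit rRNA, had 803 and 660 CPM with dyskerin, 1298 and 1337 with GAR1, and 723 and 1955, then 1063 and 654, in the IgG sets. Dyskerin lay between or below the IgG values, and GAR1 lay above both of its own. SNORD35A, also of RPL13A and a guide to large-subunit rRNA, had 610 and 458 CPM with dyskerin, 1829 and 1852 with GAR1, and 635 and 855, then 1456 and 748, in the IgG sets. The shallow IgG libraries rest on few molecules: SNORD24 was seen there with 16 and 14 cDNAs and SNORD36C with 9 and 19.

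RPL4 and RPS12 supplied 4 more of the 12. SNORD16 of RPL4, a guide to small-subunit rRNA, had 420 and 453 CPM with dyskerin, 1406 and 1714 with GAR1, and 239 and 1344, then 992 and 748, in the IgG sets. SNORD18B of RPL4 had 530 and 686 CPM with dyskerin, 842 and 1251 with GAR1, and 450 and 1100, then 752 and 467, in the IgG sets. GAR1 was above its IgG set for both, and dyskerin lay within the range of its own. SNORD100 of RPS12 had 704 and 410 CPM with dyskerin, 1421 and 978 with GAR1, and 642 and 0, then 1047 and 467, in the IgG sets. SNORD101 of RPS12 had 563 and 672 CPM with dyskerin, 1054 and 1254 with GAR1, and 321 and 122, then 667 and 654, in the IgG sets. These neighbours in one host differed in that SNORD101 was above the IgG sets in both comparisons and SNORD100 overlapped them in both.

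The remaining 4 came from separate hosts. SNORD66 of EIF4G1, the scaffold of the cap-binding complex, had 342 and 257 CPM with dyskerin, 1151 and 1241 with GAR1, and 253 and 489, then 948 and 654, in the IgG sets. SNORD83B of RPL3 had 493 and 314 CPM with dyskerin, 1770 and 1315 with GAR1, and 341 and 0, then 1060 and 0, in the IgG sets. SNORD58B of RPL17 had 543 and 405 CPM with dyskerin, 803 and 1061 with GAR1, and 450 and 489, then 914 and 374, in the IgG sets. Dyskerin overlapped its IgG set for all 3 of these, while GAR1 was clear of its own for SNORD66 and SNORD83B and not for SNORD58B. SNORD54 of RPS20 had 266 and 234 CPM with dyskerin, 693 and 924 with GAR1, and 232 and 1222, then 593 and 748, in the IgG sets, with overlap in both comparisons. The 12 together held 55.2% of member cDNAs summed over the 8 libraries.

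Per length the same 12 were highest in the mean of the 4 groups. With dyskerin alone SNORD42B, at 5776 CPM per kb, was above SNORD16 (4197), SNORD83B (4115), SNORD66 (3696) and SNORD54 (3474). Group means per kb of snoRNA and margin were 8071 CPM for dyskerin and 27750 for GAR1 on SNORD24, 9625 and 17338 on SNORD34, and 6064 and 24433 on SNORD36C. The lowest members with sites were SNORD10 at 604, SNORD73A at 639 and SNORD51 at 666 CPM per kb with dyskerin, and SNORD10 at 836, SNORD42A at 1069 and SNORD14A at 1438 with GAR1, named after their values were seen. The order of the members was alike across the deep libraries: Spearman's rho over the 42 members with sites, which share these libraries' composition, was 0.85 to 0.94 between antibody libraries, 0.74 to 0.96 between antibody libraries and the first library of an IgG set or between these, and 0.48 to 0.69 where a shallow IgG library was one of the pair. Length and per-kb level were weakly related, with rho of -0.28 for dyskerin and -0.15 for GAR1, and GC content gave -0.03 and 0.16.

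Hosts with 3 or more members numbered 7, and their 26 members held 72.1% of member cDNAs. The 4 snoRNAs of RPL13A summed to 1841 and 1570 CPM with dyskerin and 4697 and 5097 with GAR1, or 16.1% of member cDNAs over all libraries. Those of RPL7A summed to 1502 and 1314 with dyskerin and 4822 and 5070 with GAR1, or 15.6%. The means were 1706 ± 192 and 1408 ± 133 CPM for dyskerin and 4897 ± 283 and 4946 ± 175 for GAR1 (SD, n = 2). RPL4 followed at 1340 and 1545 CPM with dyskerin and 2948 and 3791 with GAR1. RPL3 had 881 and 601 with dyskerin and 2839 and 2509 with GAR1. RPL17 had 1038 and 709 CPM with dyskerin and 1906 and 1938 with GAR1, and RPL23A had 774 and 775 with dyskerin and 1397 and 1876 with GAR1. Per kb of summed member length, RPL13A and RPL7A overlapped with dyskerin (5322 and 4538 against 4876 and 4266 CPM per kb) and RPL7A was above RPL13A with GAR1 (15655 and 16461 against 13576 and 14732). RPL23A stood at 2623 and 2628 CPM per kb with dyskerin and 4736 and 6359 with GAR1. In the IgG libraries these sums ranged from 0 for RPL3 in both shallow libraries to 4660 CPM for RPL7A in the first IgG library of GAR1.

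**Figure D2:**
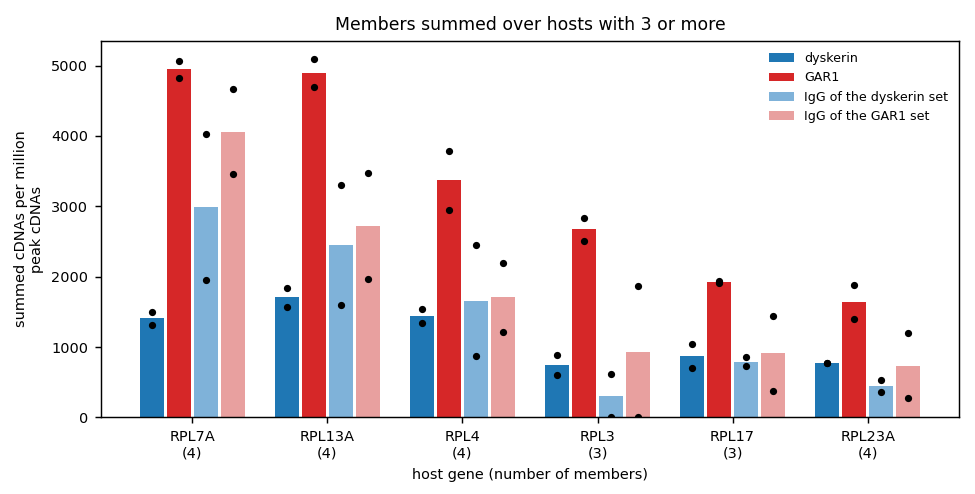
Summed CPM of the members of 6 hosts with 3 or more members, with bars for the mean of the 2 libraries of a group and points for the libraries. RPL13A and RPL7A have the largest GAR1 sums, at 4697 to 5097 CPM, and RPL7A reaches 4660 CPM in an IgG library.

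Members cut from one transcript differed widely in level, with IgG as well as with an antibody. In RPL23A, SNORD42B had 6.13 times the per-kb dyskerin level of SNORD42A and 9.04 times its GAR1 level. In RPL7A, SNORD24 had 5.98 and 7.57 times the level of SNORD36A. In RPL13A, SNORD34 had 4.39 and 2.01 times the level of SNORD32A, and with GAR1 the highest was SNORD35A at 2.34 times SNORD32A. Across RPL17, RPL3 and RPL4 the highest member of a group exceeded the lowest 2.01 to 3.39 times. In the IgG sets of dyskerin and GAR1, mean CPM per kb was 4110 and 5263 on SNORD42B against 198 and 270 on SNORD42A. SNORD24 had 17425 and 21470 there against 3527 and 3243 on SNORD36A. For SNORD34 it was 17623 and 11300, against 3436 and 2961 on SNORD32A.

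Against IgG, dyskerin gave no called member. With edgeR's quasi-likelihood test and Benjamini-Hochberg adjustment over 6403 genes, 0 of the 42 members tested were higher or lower at an adjusted p under 0.05, as was true of all genes (0% in each direction), and the lowest adjusted p of a member was 0.219. At an unadjusted p under 0.05, 2 were higher and 0 lower, against 22.0% and 0.156% of all genes tested. These 2 were SNORD102 of RPL21 and SNORD15B of RPS3, both guides to large-subunit rRNA. SNORD102 had 199 and 187 CPM with dyskerin and 0 in both IgG libraries of that set, and SNORD15B had 120 and 207 CPM against 0 and 0. Both dyskerin libraries exceeded both IgG libraries in CPM for 19 members, against 70.3% of all genes, and both fell below for 3, SNORD24, SNORD36C and SNORD35A, against 1.42% of all genes. All of the 19 but SNORD101 and SNORD42B had 0 cDNAs in the shallow IgG library. Their dyskerin means lay under its floor of 367 CPM, so for them the count rests on the first IgG library.

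The size of the dyskerin difference was small for most members. The median log2 fold change over IgG was 0.60 for the 42 members, ranging from -0.86 to 9.69 with 33 above 0, beside 2.00 for all genes tested. That median of all genes leans towards genes high in dyskerin in the same way. Genes at 0 in one group have a fitted fold that depends on the prior count. With such genes at a bound of 3 cDNAs over the group, and genes at 0 in both groups left out, the median of all genes was 0.37. That of the members was unchanged at 0.60. Of the members, 5 were at 0 in both IgG libraries of the dyskerin set. Set against 3 cDNAs over those libraries, dyskerin was at least 8.96-fold higher on SNORD102, 7.71-fold on SNORD15B, 4.89-fold on SNORD15A, 3.36-fold on SNORD14A and 2.64-fold on SNORD51. SNORD14A belongs to the family required for processing of small-subunit rRNA.

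GAR1 stood above its IgG set on more members, again with none called. edgeR gave 0 called of 42 in either direction (0% of all genes), with a lowest member adjusted p of 0.266. At an unadjusted p under 0.05 there were 36 higher and 0 lower, against 15.8% and 0.0781% of all genes, while DESeq2 gave 0 and total scaling in edgeR gave 1. Both GAR1 libraries exceeded both IgG libraries for 32 members and lay below for 0, against 10.5% and 0.64% of all genes. Most of the 32 were at 0 in the shallow IgG library of that set, where 3 cDNAs came to 280 CPM. The 10 that overlapped were SNORD38A, SNORD72, SNORD100, SNORD54, SNORD24, SNORD36A, SNORD36C, SNORD15A, SNORD4A and SNORD58B. Genes at 0 in both GAR1 and its IgG set were fitted at 0 and enter the shares of all genes above. They were left out where other genes at 0 were placed at their bound. The median log2 fold change was 5.13, from 4.03 to 8.56, beside 0.00 for all genes tested and 1.40 for the remaining genes with the bound. That value depends on scaling: the TMM factors were 0.298 and 0.0704 for the GAR1 libraries and 1.14 to 4.09 for IgG, and the median was 1.03 with libraries scaled to their total, 1.01 with DESeq2, 0.44 with the 2 compared groups alone and 0.94 and 0.96 without dyskerin replicate 1 or 2. Since the GAR1 antibody and its control came from different species, the target and the species of the antibody cannot be told apart in this comparison.

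The direct comparison of dyskerin with GAR1 asked whether the 2 proteins of one particle differ on these RNAs. In CPM, GAR1 exceeded dyskerin 1.13 to 4.13 times over the 42 members, with a median of 2.85. Both GAR1 libraries were above both dyskerin libraries for 40 of 42, and 0 went the other way, against 6.37% and 91.5% of all genes tested. As dyskerin libraries alone can meet the filter, the shares of all genes in this comparison lean towards genes high in dyskerin. They are not a neutral yardstick. Only SNORD10 of EIF4A1 and SNORD42A of RPL23A overlapped, at 76.7 and 101 CPM with dyskerin against 58.1 and 188 with GAR1, and 70.2 and 59.7 against 47.8 and 99.7.

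In edgeR's fit 20 of 42 members were called lower in dyskerin than in GAR1 and 0 higher, against 4.39% and 37.5% of all genes, but under DESeq2's size factors all 42 fitted values were above 0 and 0 members were called. SNORD32A of RPL13A, a guide to rRNA of both subunits, had 176 and 214 CPM with dyskerin, 637 and 901 with GAR1, and 123 and 489, then 434 and 93.4, in the IgG sets. Its log2 fold change of dyskerin over GAR1 was -5.76 (SE 2.20, edgeR adjusted p = 0.0488). SNORD33 of RPL13A, a guide to small-subunit rRNA, had 251 and 238 CPM with dyskerin, 933 and 1007 with GAR1, and 123 and 0, then 518 and 467, in the IgG sets. The groups of both antibodies were well apart in CPM for each of these. The log2 fold change was -5.66 for SNORD33 (SE 2.12), and for SNORD36C and SNORD66, whose CPM is given above, it was -5.69 (SE 1.87) and -5.67 (SE 2.02), each with an edgeR adjusted p of 0.0488. These folds carry the TMM factors given above, and on total scaling the median of the members was -1.49 and 0 were called.

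The scaling moved the median of all genes and that of the members in the same direction, but not by the same amount. For dyskerin over GAR1, TMM gave a median over all genes of 5.54, total scaling one of 6.58 and DESeq2 one of 8.60, and the members' medians were -5.22, -1.49 and 0.62, which puts the members at -10.77, -8.06 and -7.98 relative to all genes. A common scaling factor would cancel in such a difference, so a like value says nothing of stability. The difference still changed between TMM and total scaling. Much of it rests on genes at 0 in GAR1, and with those at their bound of 3 cDNAs the TMM median over all genes was 1.04 and the members stood at -6.26 relative to it. The count of calls rested on single libraries: it was 0 without dyskerin replicate 1, dyskerin replicate 2 or GAR1 replicate 2, and 6 without GAR1 replicate 1.

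The difference of the antibody effects, dyskerin over its IgG minus GAR1 over its IgG, gave 0 called members in either direction (0% of all genes). At an unadjusted p under 0.05, 5 members were lower and 0 higher, against 3.28% and 2.53% of all genes. These 5 were SNORD24, SNORD36C, SNORD35A, SNORD16 and SNORD34, with log2 differences from -4.79 to -4.90 and adjusted p of 0.681 to 0.814 in edgeR. The differences carry the TMM factors given above, and this contrast was not fitted under another scaling. In CPM, SNORD24 had a ratio of means of 0.463 for dyskerin over its IgG set and 1.29 for GAR1 over its own. SNORD36C had 0.426 and 0.914.

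**Figure D3:**
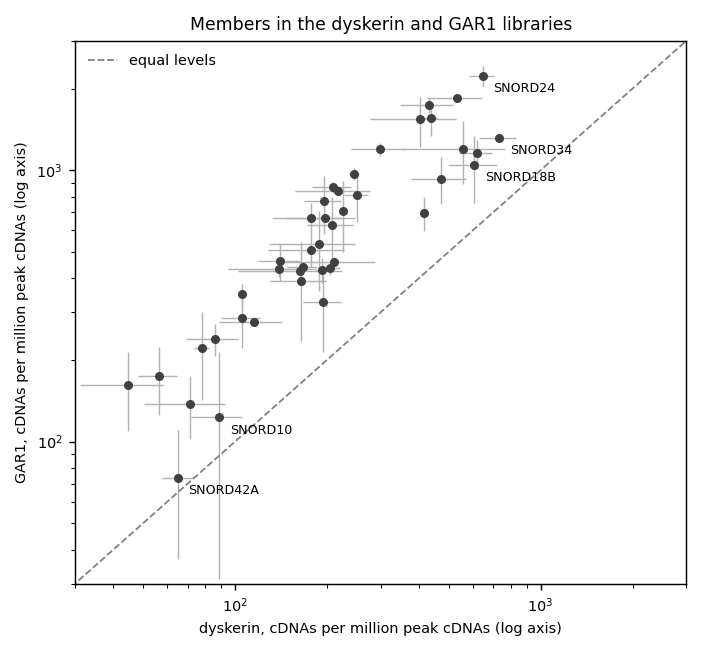
Mean CPM of each of the 42 members with sites in the dyskerin libraries (x) and the GAR1 libraries (y), on log axes, with lines for the SD of 2 libraries and a dashed line of equal levels. GAR1 exceeds dyskerin 1.13 to 4.13 times in CPM, a direction that was opposite in the DESeq2 fit.

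In 4 hosts a C/D member shares its transcript with an H/ACA snoRNA, the class that dyskerin and GAR1 are known to bind. In RPS12, SNORA33 had 1319 and 2030 CPM with dyskerin and 11499 and 12518 with GAR1, beside SNORD100 and SNORD101 given above. In RPL21, SNORA27 had 734 and 760 CPM with dyskerin and 9041 and 7106 with GAR1, where SNORD102 had 199 and 187, then 461 and 398. In EEF1B2, SNORA41 had 929 and 1095 with dyskerin and 7707 and 7779 with GAR1, where SNORD51 had 50.8 and 62.4, then 140 and 208. Per kb, the H/ACA snoRNA was the higher in these hosts in each antibody library, at its closest in RPS12 with dyskerin, where SNORA33 had 9773 and 15036, SNORD100 8695 and 5056 and SNORD101 7220 and 8620 CPM per kb. In EIF4A1, which encodes the helicase that unwinds mRNA leaders, SNORA48 had 2316 and 2867 CPM with dyskerin and 9891 and 9153 with GAR1 and SNORA67 had 1941 and 3576, then 6185 and 8207, beside SNORD10. Over the 4 hosts, H/ACA cDNAs outnumbered C/D cDNAs 4.54 and 7.21 times with dyskerin, 14.1 and 14.8 times with GAR1, 6.85 times in the first IgG library of dyskerin and 20.8 and 22.4 times in the IgG set of GAR1. The shallow IgG library of dyskerin held 1 C/D cDNA there.

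The cDNAs were concentrated on the snoRNAs within the host transcripts. Outside short RNAs, the hosts' exons, 80924 nt in all, held 1485 and 2437 cDNAs with dyskerin and 1 and 20 with GAR1, and their introns, 81086 nt, held 57 and 99, then 9 and 14. The members cover 3544 nt. Per kb, members had 299 and 180 times the dyskerin cDNAs of host exons and 7793 and 4429 times those of host introns. The first IgG library of dyskerin gave 269 and 4854 times. In the 50 nt upstream of the members, beyond the margin of 5 nt, there were 9 and 17 cDNAs with dyskerin and 9 and 23 with GAR1, and in the 50 nt downstream 0 and 3, then 0 and 0.

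The ends of cDNAs gathered at the start of the snoRNA. Whether ends at or just before the first base mark crosslinks was not tested. The share of member cDNAs within 5 nt of the annotated start was 37.3% and 39.7% with dyskerin, 43.6% and 44.4% with GAR1, 57.4% and 58.0% in the IgG set of dyskerin and 52.7% and 56.5% in that of GAR1. The antibody and IgG libraries did not overlap. The difference of means was -14.9 points (41.2% against 56.1%, exact two-sided permutation test, p = 0.0286, the smallest this design allows, and adjusted p = 0.0571). The share past the midpoint of the snoRNA was 12.5% and 13.4% with dyskerin, 10.2% and 8.62% with GAR1, 2.36% and 4.20% in the IgG set of dyskerin and 4.13% and 3.23% in that of GAR1. Here too the groups did not overlap, with 7.70 points more in the antibody libraries (exact two-sided permutation test, p = 0.0286, adjusted p = 0.0571). Every IgG library was shallower than every antibody library, and only significant sites are listed. Antibody and depth therefore cannot be told apart in either share. With sites of at least 3 cDNAs, the start share was 67.5%, 88.2%, 56.2% and 63.8% in the IgG libraries. It was 38.3%, 41.1%, 45.1% and 44.7% in the antibody libraries.

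Near the start, other intronic C/D snoRNAs had shares like those of the members, and H/ACA snoRNAs had lower ones. C/D snoRNAs of other protein-coding hosts had 36.0% and 42.5% of dyskerin cDNAs and 39.5% and 41.4% of GAR1 cDNAs within 5 nt of the start, and those of lncRNA hosts 33.1% and 39.5%, then 42.3% and 42.1%. H/ACA snoRNAs of translation hosts had 5.37% and 10.9%, then 8.22% and 12.3%. Past the midpoint, C/D snoRNAs of lncRNA hosts held 19.7% and 16.3% of dyskerin cDNAs and 13.5% and 10.8% of GAR1 cDNAs, above the members in all 4 antibody libraries, and those of other protein-coding hosts held 14.4% and 11.8%, then 16.6% and 10.0%. The H/ACA snoRNAs held 27.1% and 24.2% of dyskerin cDNAs and 28.8% and 25.1% of GAR1 cDNAs, above all 3 C/D classes in each antibody library. These comparisons of classes are descriptions over the libraries, with no test.

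**Figure D4:**
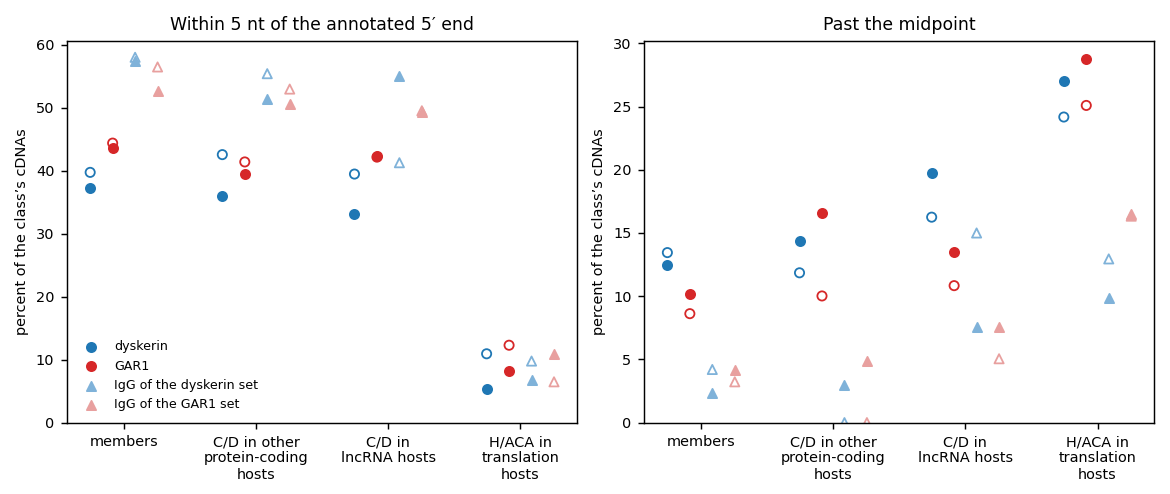
Percent of the cDNAs of 4 snoRNA classes that lay within 5 nt of the annotated start (left) and past the midpoint (right), one point per library, filled for replicate 1 and open for replicate 2. Members and both other C/D classes lie at 33.1% to 44.4% at the start in the antibody libraries, where H/ACA snoRNAs of translation hosts lie at 5.37% to 12.3%.

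At single-nucleotide scale the 2 positions just before the annotated start stood out. Position -2 held 9.95% ± 0.65 of member cDNAs with dyskerin, 12.3% ± 0.64 with GAR1, 23.9% ± 6.5 in the IgG set of dyskerin and 18.6% ± 2.2 in that of GAR1 (SD, n = 2). Position -1 held 9.34%, 10.2%, 13.3% and 12.1% in the same order, and by position 6 dyskerin and GAR1 were at 0.17% and 0.20%. Relative to the first base of box C, the 2 leading positions were -8 at 15.6% and 17.9% with dyskerin and GAR1 and -7 at 13.1% and 14.5%.

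Few cDNAs ended in the boxes themselves. In the 40 members with sites and both boxes, the margin and first bases up to box C held 39.2% ± 1.99 of dyskerin cDNAs and 44.2% ± 0.311 of GAR1 cDNAs in 13.8% of the nucleotides. Box C held 1.62% and 1.72% in 5.78% of the nucleotides. The stretch between the boxes held 59.2% ± 2.17 and 54.1% ± 0.371 in 69.6%. Box D and what follows it held 0 in all 8 libraries, in 4.62% and 6.24% of the nucleotides, and no cDNA of any library ended closer than 13 nt to the 3′ end. A cDNA ending there would leave a very short read, and the study discarded the shortest reads after trimming. The 0 therefore cannot show whether box D was touched. H/ACA snoRNAs of translation hosts held only 0.128% to 0.564% of their cDNAs in the last 20 nt in the antibody libraries. Past position 5 in the same 40 members, 43.4% ± 1.14 of dyskerin and 41.6% ± 0.11 of GAR1 cDNAs were at a U, which made up 29.5% of those nucleotides. The IgG sets gave 41.3% ± 1.85 and 46.9% ± 9.55.

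**Figure D5:**
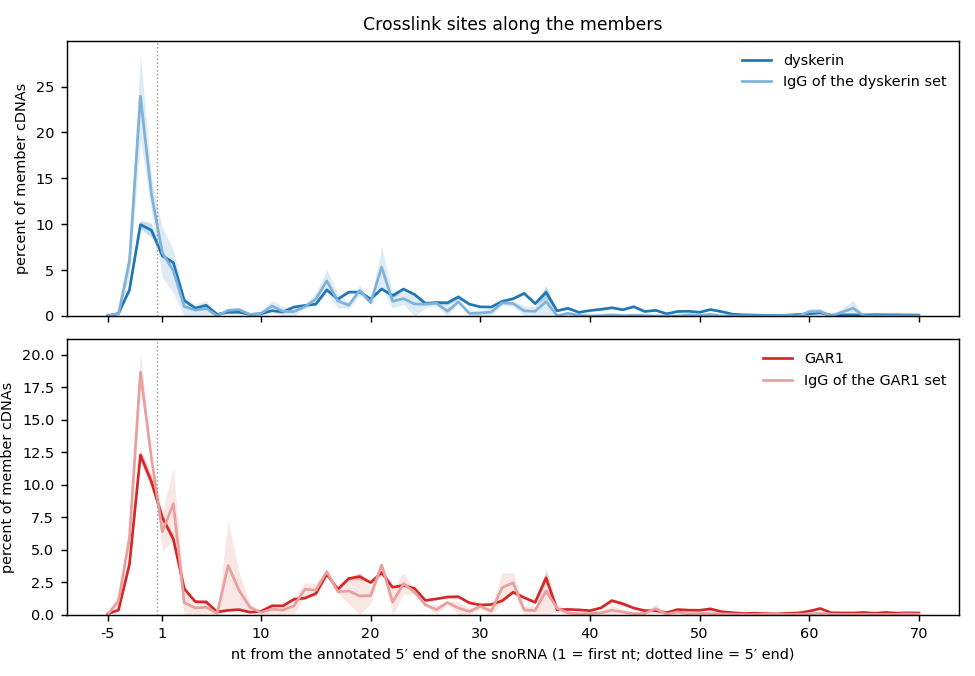
Percent of member cDNAs at each position, counted in nt from the annotated 5′ end, with lines for the mean of the 2 libraries of a group and shading for their range, for the dyskerin set above and the GAR1 set below. All 4 groups peak just before the start, at 9.95% (dyskerin) to 23.9% (IgG set of dyskerin) at position -2, and dyskerin and GAR1 drop to 0.17% and 0.20% at position 6.

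The leading nucleotide of a member was mostly kept between libraries, and it was often shared by members. Position -2 led in all 4 antibody libraries for 7 members and position -1 for 7 others. For 30 of the 42 members with at least 20 cDNAs in each antibody library the top position was the same in all 4, and for 29 it was within 5 nt of the start in all 4. In SNORD24, position -2 led with 22.5% and 31.5% of dyskerin cDNAs and 19.8% and 25.5% of GAR1 cDNAs, and with 47.5% and 37.7% in the first IgG libraries of the 2 sets. In SNORD34, position 2 led with 14.7% and 26.5%, then 20.4% and 27.2%. A different kind was shown by SNORD32A, SNORD35A, SNORD35B, SNORD42B, SNORD58B, SNORD83A and SNORD83B, the 7 whose top lay past position 5 in all 4 antibody libraries. SNORD58B was led by position 16, between its boxes, with 14.8% and 15.3% of dyskerin cDNAs and 16.4% and 17.1% of GAR1 cDNAs. SNORD83B was led by position 36 with 37.1% and 23.8%, then 34.2% and 30.5%, and 46.0% in the first IgG library of GAR1. SNORD97 of EIF4G2 lacked the letters of both boxes in the windows searched and was chosen after its values were seen. It had 63.5% of cDNAs past the midpoint on average.

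Most transcripts of the listed snoRNP proteins carried cDNAs in the dyskerin libraries and almost none with GAR1. Of the C/D core proteins, NOP56 had 444 and 501 cDNAs with dyskerin, NOP58 376 and 668, fibrillarin (FBL) 15 and 26 and SNU13 7 and 2, with at most 1 cDNA in a GAR1 library. In the first IgG library of dyskerin they summed to 676 CPM, beside 497 and 638 CPM with dyskerin. edgeR called 0 of the 3 tested in any of the 3 comparisons, and at an unadjusted p under 0.05 NOP58 and FBL were higher with dyskerin than with GAR1. Against 3 cDNAs over the GAR1 group the bound was 21.5-fold for NOP58 and 1-fold for FBL, so no difference can be stated for FBL. Of the H/ACA core proteins 1 of 4 was tested, and DKC1, the gene of dyskerin itself, had 90 and 113 cDNAs with dyskerin and 0 and 0 with GAR1 (at least 4.18-fold higher on the TMM scale, against 3 cDNAs over the GAR1 group, edgeR adjusted p = 0.0488). GAR1 itself had 17 and 2 cDNAs with dyskerin, and NHP2 and NOP10 were at 0 in all 8 libraries. Of 11 snoRNP assembly factors 8 were tested, and 3 were called higher with dyskerin than with GAR1, the helicases RUVBL1 and RUVBL2 and the Cajal body protein NOLC1. Their bounds on the same scale were 1.46-fold, 5.13-fold and 9.21-fold. No listed transcript was called against an IgG set, and for dyskerin over GAR1 37.5% of all genes tested were called higher.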

How the data were processed

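The study mapped dyskerin and GAR1 crosslinks on nuclear RNA of U2OS cells in 8 iCLIP libraries. By their methods section and the processing notes of the submission, the authors trimmed reads (cutadapt), checked them (FastQC 0.11.9), aligned them to GRCh38 with STAR 2.7.0e, and called significant crosslink sites with iCount. The deposited count in column 5 of each site file is the number of cDNAs ending at that nucleotide, called per library and not normalised. Deposited cluster files were not used. As only significant sites are listed, nucleotides with few cDNAs are missing, more so in shallow libraries.

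Sites were assigned by strand to GENCODE 44 genes with pysam 0.24.0 and pandas 2.3.3 under Python 3.11.15, a snoRNA taking its body plus 5 nt upstream and precedence over its host. SNORD38B, annotated in 2 records at one locus, was counted once. CPM divides by the library's peak cDNAs. edgeR 4.0.16 (limma 3.58.1, R 4.3.3) fitted the 4 groups together with TMM, keeping genes that reached 10 counts in 2 or more libraries, and had 4 residual degrees of freedom. The p-values were adjusted over 6403 genes. The script was tested on simulated data. Position and share measures used exact two-sided permutation tests of 4 antibody against 4 IgG libraries (scipy 1.17.1), with Benjamini-Hochberg adjustment over 4 measures. Copies were sought with BLAST 2.17.0, and figures were drawn with matplotlib 3.10.9. Floors cover counting error only.

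Groups and replicate numbers came from the labels. The members and lists were chosen with earlier results of these data known. Members named with values were the 12 highest over the 4 group means, up to 5 called per direction and comparison with groups apart in CPM, hosts with 3 or more members, and members at 0 in all libraries, and other members named were singled out after their values were seen. Alternatives were DESeq2 1.42.0, total scaling, a filter of 50 counts and none, sites of at least 3 cDNAs, each site counted once, exact annotated ends, means over members, no top member, the 2 compared groups alone, a replicate block, and each library left out. Leaving out both shallow IgG libraries was chosen after seeing the data. Same-numbered replicates did not deviate together (correlations -0.137 to 0.103). The sums of 1 host with 3 or more members and the fold change of 1 called member are not reported here, though both entered every count.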

Additional observations from a re-analysis of the deposited data

How the results depend on the processing

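No member was called for dyskerin over its IgG set under any of 17 alternatives, and DESeq2 gave 3 members higher at an unadjusted p under 0.05 there and 0 for GAR1 over its IgG set. The 20 members called for dyskerin against GAR1 became 0 with total scaling, no filter, sites of at least 3 cDNAs, the replicate block or DESeq2, 3 with exact ends, 42 with the 2 compared groups alone and 39 without both shallow IgG libraries, an alternative chosen after seeing the data. Its median log2 fold change of -5.22 was -1.49 with total scaling, -2.78 with 50 counts, -0.88 with sites of at least 3 cDNAs, -5.28 with the replicate block and 0.62 with DESeq2, which also turned SNORD32A (0.13), SNORD36C (0.13), SNORD66 (0.14) and SNORD33 (0.13). The replicate numbers did not pair the samples, and the block changed no call against IgG. Leaving out each library in turn gave 0 to 21 calls and medians of -5.94 to -3.22 for dyskerin against GAR1, 0 to 12 calls (12 without GAR1 replicate 1) and 0.94 to 13.01 (the highest without IgG replicate 1 of GAR1) for GAR1 over IgG, and 0 calls and 0.35 to 8.20 (the highest without IgG replicate 1 of dyskerin) for dyskerin over IgG. A lone library was assumed to vary like the other groups.

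The share of peak cDNAs in members differed between antibody and IgG by 1.28 points with sites of at least 3 cDNAs (adjusted p = 0.0381, exact permutation test) and by -0.11 with each site counted once, which also gave 0.54 for the share of C/D cDNAs and 16.8 for the share past the midpoint. Exact ends gave 9.68 for the share of C/D cDNAs. The first share differed by 0.289 to 0.989 with one library left out. With sites of at least 3 cDNAs the share near the start differed by -26.6 points and that past the midpoint by 9.68 (each adjusted p = 0.0381, exact permutation test). With one library left out these ranged from -16.1 to -13.6 and from 6.94 to 8.55, and the share of C/D cDNAs from 3.89 to 7.93. Those 3 measures had an adjusted p of 0.0381 without IgG replicate 1 of GAR1 (exact permutation test). Without both shallow IgG libraries only 15 arrangements exist and p cannot go below 0.0667. The alternative without near-identical copies could not be fitted, as no member has one. The causes of these differences were not tested. Depth limits every comparison with IgG, since each IgG library held fewer peak cDNAs than any antibody library, and the second library of each set only 8183 and 10701.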
